A study of Mus musculus with 12 samples.

Results

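Insig1 and 7 further genes of sterol and fatty acid synthesis were followed in mouse gastrocnemius, a calf muscle, after loss of the coactivators PGC-1alpha and PGC-1beta. The 8 genes, Insig1, Hmgcs1, Sqle, Fdft1, Srebf1, Srebf2, Scd1 and Fasn, were found by gene symbol among the 19437 genes that the array's probes name, and all 8 had probes. They were picked because the mean ratio of Insig1 was high in the double knockout, and the question put to the data was whether other targets of the SREBP transcription factors rose with it. The ratios of all 4 groups of arrays went into that choice, so the values of the 8 genes are given as a description with no test, and tests are kept for 70 other genes of the same pathways.

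All RNA came from males, aged 12 weeks, of the strain C57BL6/J x sv129. Total RNA was taken up in Trizol, copied into labelled cRNA and hybridised to 12 Agilent arrays that each read 2 dyes. Groups are named as the arrays are titled. On 3 arrays RNA of PGC-1alpha -/- mice was set against RNA of PGC-1beta f/f mice (the alpha arrays). On 3 arrays PGC-1beta f/f/Mlc1fCre mice took the place of the alpha knockout (the beta arrays), and on 3 arrays PGC-1alpha-/- beta f/f/Mlc1fCre mice did so (the double arrays). The last 3 arrays set the double knockout against the PGC-1alpha -/- mice (the direct arrays). PGC-1alpha was missing from the whole body, whereas the Mlc1f gene that drives Cre is active in skeletal muscle fibres, so other cells of the muscle kept PGC-1beta. The PGC-1beta f/f controls carried the floxed alleles without Cre. Cy5 always marked the RNA named first here and Cy3 the RNA it was set against, without dye swaps. Arrays are numbered by replicate as in their titles. They are not known to be separate mice, so p-values measure only the spread between arrays. In whole muscle, fewer cells of a type and less RNA per cell cannot be told apart.

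Sterol and fatty acid synthesis are controlled by the SREBP factors, which are made as membrane proteins of the endoplasmic reticulum. SCAP escorts them to the Golgi, where proteases release the active factor, and INSIG proteins hold SCAP back when sterols are plentiful. Srebf2 encodes SREBP-2, which mainly drives sterol genes, and Srebf1 encodes SREBP-1, whose 1c form mainly drives fatty acid genes. Insig1 is itself a target of SREBPs, so in liver and cultured cells it usually moves with the enzymes of the pathway. PGC-1alpha and PGC-1beta are coactivators of oxidative metabolism, and PGC-1beta also coactivates SREBPs in liver.

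The promoters of Insig1, Hmgcs1 and Srebf2 are shown because they bear on the shared control that the question assumes. Each window holds the 250 bases before the RefSeq start on GRCm38.p6, 5′ to 3′ on the gene's strand. Capitals mark the sterol regulatory element core TCACNCCA and the E-box CACGTG, searched on both strands.
Insig1, chr5:28071162-28071411, plus strand: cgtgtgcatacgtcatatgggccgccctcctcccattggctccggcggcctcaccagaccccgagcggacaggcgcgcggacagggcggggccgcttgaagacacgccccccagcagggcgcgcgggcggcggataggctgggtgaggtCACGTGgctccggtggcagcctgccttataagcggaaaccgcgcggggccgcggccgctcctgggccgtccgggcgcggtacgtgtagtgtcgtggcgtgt
Hmgcs1, chr13:119690101-119690350, plus strand: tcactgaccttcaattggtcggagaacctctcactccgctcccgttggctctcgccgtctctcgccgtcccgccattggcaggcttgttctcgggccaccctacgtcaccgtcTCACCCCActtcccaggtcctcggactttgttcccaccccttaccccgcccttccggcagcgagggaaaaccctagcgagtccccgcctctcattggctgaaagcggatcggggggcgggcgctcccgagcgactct
Srebf2, chr15:82147019-82147268, plus strand: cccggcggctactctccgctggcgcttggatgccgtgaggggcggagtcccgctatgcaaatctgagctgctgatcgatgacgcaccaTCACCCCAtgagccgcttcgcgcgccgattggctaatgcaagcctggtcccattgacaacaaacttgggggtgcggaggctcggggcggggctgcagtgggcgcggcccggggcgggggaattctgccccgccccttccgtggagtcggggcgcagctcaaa
The windows of Hmgcs1 and Srebf2 each held TCACCCCA, at 137 to 130 and at 162 to 155 bases before the start. The Insig1 window held the E-box at 101 to 96 bases before the start and no TCACNCCA, which says only that these letters are not in this window. Across 32851 RefSeq mouse promoters cut to the same length, 3.67% held TCACNCCA, 6.02% held CACGTG and 33.8% held CCAAT, the box that the cofactor NF-Y reads. CCAAT occurred 3 times in the Hmgcs1 window and once each in those of Insig1 and Srebf2, and did not overlap the other motifs. A match is a description of the sequence and does not show binding. RefSeq promoter windows were matched for 5 of the 8 genes; those of Srebf1 and Fasn, not shown, held no TCACNCCA and no CACGTG.

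On GRCm38.p6 Insig1 lies at chr5:28071412-28078662, Hmgcs1 at chr13:119690351-119708260, Sqle at chr15:59315092-59331193 and Fdft1 at chr14:63145150-63181687. Srebf1 lies at chr11:60199084-60224186, Srebf2 at chr15:82147269-82205379, Scd1 at chr19:44394450-44407709 and Fasn at chr11:120805958-120825166. These are the RefSeq gene bounds, and the positions of the array's probes within the genes were not used here.

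The deposited values are Cy5 over Cy3 ratios, multiplied by 1 factor per array. They were used on the log2 scale after each array was centred on its median gene, so 0 stands for the median gene and 1 for a ratio 2 times as high. Ratios of 0 or below, and the repeated top value of each array, have no log and were undefined. Ratios that equal the array's factor times a fraction made of whole numbers no larger than 10 were left out, because signals of a few units or equal signals give such fractions. The files give ratios and no signals. Undefined values made up 27.62% of probes on beta 3, 23.73% on direct 3 and 21.52% on double 3, and between 8.39% and 15.12% elsewhere. Beta 3 was left out of the main values: its correlation with beta 1, over log2 ratios of defined probes, was -0.44. That of double 3 with alpha 1 was -0.33. On 6 arrays the channel labels name another knockout than the title does, and the titles were followed. Ppargc1a, the gene of PGC-1alpha, fell on the alpha arrays (log2 ratio -1.46 ± 1.04, SD, n = 3; limma adjusted p = 0.018) and stood at -1.30 ± 0.58 on the double arrays (adjusted p = 0.0776). Ppargc1b, the gene of PGC-1beta, stood at 0.76 ± 0.20 (n = 2) on the beta and 0.31 ± 0.04 (n = 3) on the double arrays (adjusted p 0.307 and 0.623), and so went against the labels, which name a PGC-1beta deletion. On the alpha arrays, with no PGC-1beta deletion in the title, Ppargc1b rose (1.13 ± 0.37, n = 3; adjusted p = 0.0256), and on the direct arrays, where the alpha RNA is the reference, it was lower in the double knockout (-1.11 ± 0.88, n = 3; adjusted p = 0.031). Whether its probes lie in the deleted part is not given in the sources used here.

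Insig1 encodes the sterol-regulated retention protein of the SCAP and SREBP complex. Its mean log2 ratio was 3.86 ± 1.45 (SD, n = 2) on the double arrays, against 0.30 ± 0.26 (n = 2) on the alpha and 0.21 ± 0.19 (n = 2) on the beta arrays. On the direct arrays, which set the same double knockout against the alpha knockout, it was -0.04 ± 0.60 (n = 2). Of the 24 values from its 2 probes, 10 could be used, 9 lay on the small fractions and 5 were undefined. The left-out share was thus 47.4% of the defined values of Insig1, where each array's share over all probes lay between 16.31% and 42.78%. The array values were 0.48 on alpha 2, 0.11 on alpha 3, 0.35 on beta 1 and 0.08 on beta 2. They were 2.84 on double 2, 4.89 on double 3, 0.39 on direct 1 and -0.47 on direct 2, with no usable value on alpha 1, double 1 or direct 3. The 2 double arrays stood above the other 6, which lay between -0.47 and 0.48. On beta 3, which is not among these, the first probe stood at 4.02 on a small fraction and was left out, and with all defined ratios that array gave 1.26. The same probe gave the 4.89 of double 3, and the log2 ratios of beta 3 and double 3 correlated at 0.47 over probes, against -0.20 for double 1 and double 3.

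**Figure D1:**
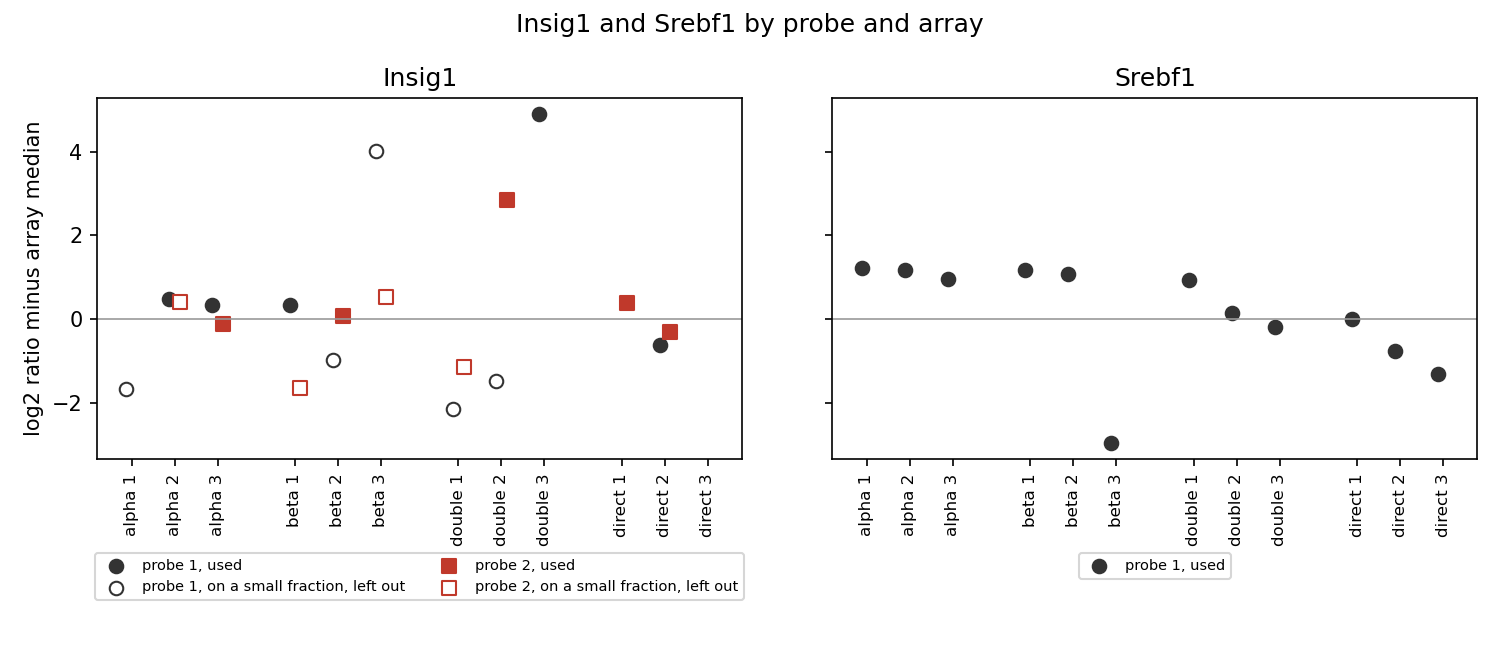
Log2 ratios of Insig1 (left) and Srebf1 (right) minus the array median, by array, with 1 point per probe; filled points were used, open points lay on small fractions and were left out, and undefined values have no point. On the double arrays the usable Insig1 values are 2.84 and 4.89, each from 1 probe, and the open points lie below 0, whereas Srebf1 has a usable point on every array.

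Each of the high values came from 1 probe of the pair, and not from the same one. On double 3 the first probe had a deposited ratio of 26.381, which equals 23/5 of that array's factor, while the second had -2.867 and was undefined. On double 2 the second probe had 7.482, which equals 33/5 of the factor, while the first had 0.377 and a centred log2 ratio of -1.47, on a fraction of 1/3. On double 1 both probes lay on small fractions, at -2.15 and -1.15. No array therefore showed Insig1 high with both probes. Ratios with a denominator of 5 or less were 28.22% of the defined probes on double 2 and 22.39% on double 3. When they were left out too, no Insig1 value remained on the double arrays. With all defined ratios kept, the 3 double arrays gave -1.30, 0.69 and 4.53, a mean of 1.30 ± 2.97 (SD, n = 3) that is smaller than its spread. The high values thus came with ratios of small denominators, whose part in them was not tested. Such ratios were not particular to the high values. The usable values of the first probe on alpha 2, alpha 3 and beta 1 equalled 38/9, 23/7 and 17/3 of the array's factor.

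Values of the 3 sterol enzymes on the double arrays lay between -0.82 and 0.54. Hmgcs1, which makes the HMG-CoA from which mevalonate is formed, had log2 ratios of 1.53, 0.58 and 1.21 on alpha 1 to 3, 0.80 and 0.28 on the beta, 0.54, -0.31 and -0.33 on the double, and -0.51, -0.39 and -1.94 on the direct arrays. All 3 alpha values were above the 3 double values, and all direct values were below 0. Its mean was 1.11 ± 0.48 (n = 3) on the alpha arrays, 0.54 ± 0.37 (n = 2) on the beta, -0.03 ± 0.49 (n = 3) on the double and -0.95 ± 0.86 (n = 3) on the direct arrays. These values rest mostly on 1 of its 2 probes, since the other gave 2 usable values of 12, and its pattern depends on the left-out ratios. With all defined ratios kept, the means were -0.59 on the alpha, 0.77 on the beta, -0.35 on the double and -0.03 on the direct arrays, with direct 1 at 0.54. Then neither the alpha values above the double values nor a common sign of the direct values remained.

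Sqle, squalene epoxidase, a rate-setting step after squalene, stood at 0.61 and -0.35 on alpha 2 and 3, 0.41 and 0.20 on the beta, -0.82 and 0.46 on double 2 and 3, and -0.13, -2.47 and -0.19 on the direct arrays. Its values had both signs on the alpha and on the double arrays. The direct mean of -0.93 ± 1.34 (n = 3) was set by direct 2.

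Fdft1, squalene synthase, stood at -1.14, -0.22 and -1.05 on the alpha arrays, -0.96 and 0.06 on the beta, -0.63, -0.39 and 0.42 on the double, and -0.06, 0.13 and 0.56 on the direct arrays. Its 2 probes disagreed in sign, so the average hides 2 patterns. The first probe gave 0.68, 0.93 and 0.97 on the alpha and -1.09, -1.02 and -0.81 on the direct arrays. The second gave -2.96, -1.38 and -3.07 on the alpha and 0.97, 1.27 and 1.92 on the direct arrays. On the double arrays the probes gave 0.27, -0.39 and 0.31, and -1.52, -0.39 and 0.53. No single direction can therefore be given for Fdft1.

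Srebf1 had 1 probe, usable on all 12 arrays. It stood at 1.23, 1.18 and 0.96 on the alpha arrays and 1.18 and 1.06 on the beta arrays, against 0.93, 0.14 and -0.18 on the double and -0.01, -0.77 and -1.30 on the direct arrays. The alpha mean of 1.12 ± 0.14 (n = 3), or 2.18-fold, and the beta mean of 1.12 ± 0.08 (n = 2) lay above every double value. Under the other centrings tried the alpha mean was 0.91 to 1.36. The double mean was 0.30 ± 0.57 (n = 3) and the direct mean -0.69 ± 0.65 (n = 3). On beta 3 Srebf1 stood at -2.96, and the beta mean was -0.24 with that array kept. In the authors' deposited table the mean ratio of Srebf1 was 2.30 (SEM 0.32) in the alpha, 2.13 (SEM 0.10) in the beta and 1.22 (SEM 0.27) in the double knockout. These means match those of the same arrays, the beta mean without beta 3, and so are not a separate measurement.

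Srebf2 had 4 probes, and its averages hide probes that disagree. It stood at 0.16, 0.46 and 0.11 on the alpha arrays, 0.35 and 0.18 on the beta, -0.00, -0.18 and 0.95 on the double, and -0.07, -0.29 and 0.56 on the direct arrays. The double mean was 0.26 ± 0.61 (n = 3). On double 3 the average rests on 1 probe at 3.75, while the others stood at -0.05, -0.03 and 0.14. On direct 2 a probe at -3.49 and another at 3.39 cancel in the average. No direction can therefore be given for Srebf2 either.

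Scd1 encodes the desaturase that makes oleic acid. It stood at -0.14, 0.57 and 1.09 on the alpha arrays, 0.28 and 1.18 on the beta, -0.68, -0.28 and -0.52 on the double, and -0.62, -1.04 and -1.23 on the direct arrays. Every double value was below every alpha and beta value. The direct values, read against alpha RNA, were all below 0. The double mean was -0.49 ± 0.20 (n = 3) and the direct mean -0.96 ± 0.31 (n = 3).

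Fasn, the fatty acid synthase, stood at 0.30, 0.91 and 0.66 on the alpha arrays, 0.62 and 0.30 on the beta, -0.75, 0.26 and -0.94 on the double, and 0.44, -0.86 and -0.59 on the direct arrays. All 5 alpha and beta averages were above the 3 double averages, but the 2 probes of Fasn disagreed. Its second probe stood at 0.499 on double 2, above 0.275 on alpha 3 and 0.092 on beta 2. On double 3 the probes stood at -0.09 and -1.787, and on direct 3 at -1.587 and 0.413. The double mean was -0.48 ± 0.64 (n = 3). Direct 1 had the opposite sign to the other 2 direct arrays with its first probe, at -0.706, left out. With all defined ratios kept it was -0.23, and all 3 direct values were below 0.

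**Figure D2:**
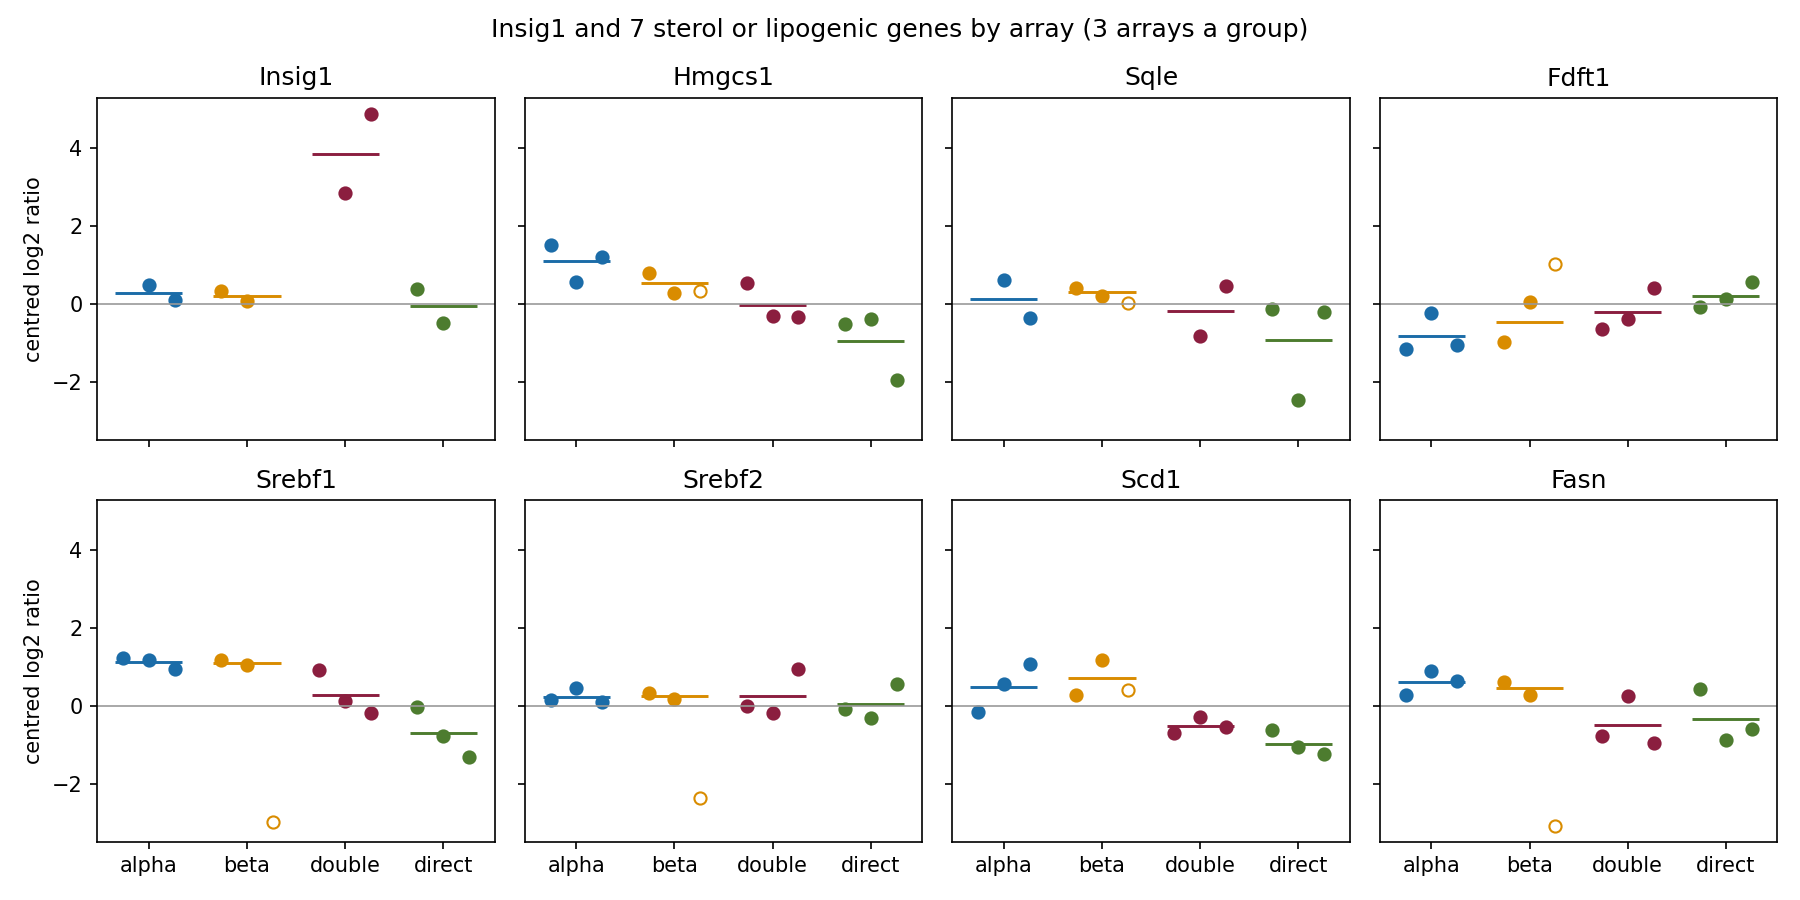
Centred log2 ratios of the 8 genes by array, 1 panel per gene, with a point per array and a line for the mean of each group; the open point is beta 3, which is not in the mean. Srebf1 lies near 1.12 in the alpha and beta groups, and Insig1 is the gene with a double mean far above 0 (3.86).

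Of the 8 genes, 7 were above 0 on the alpha arrays, 7 on the beta, 3 on the double and 2 on the direct arrays. Of all 11328 genes tested, 6229, 6026, 5542 and 5028 were above 0 in the same order. The medians of the 8 were 0.40, 0.38, -0.11 and -0.51, beside 0.09, 0.05, -0.01 and -0.10 over all genes tested. Over the 2845 genes whose every ratio was used they were 0.20, 0.14, 0.03 and -0.05. With all defined ratios kept, Insig1 (-0.15) and Hmgcs1 (-0.59) were below 0 on the alpha arrays, and Insig1 (-0.32) on the beta arrays. On the double arrays the 3 genes above 0 were Insig1, Srebf1 and Srebf2, 2 of them with means smaller than their SD. For Hmgcs1, Srebf1, Scd1 and Fasn, alpha or beta values were set above the double values. How many of all genes separate the groups in this way was not counted, so these separations are descriptions only.

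The double and the alpha knockout can be compared by either of 2 routes, directly or through the floxed controls, and the alpha RNA is the shared term of both. For Insig1 the route through the controls gave 3.57 and the direct arrays -0.04, a gap of -3.60. For Hmgcs1 the values were -1.14 and -0.95 (with the small fractions left out), for Srebf1 -0.83 and -0.69, for Scd1 -1.0 and -0.96, and for Srebf2 0.02 and 0.06. Insig1 was thus the gene of the 8 whose routes differed most. It was picked for its high double value, which enters only the route through the controls, so the choice itself favoured a large gap. With all defined ratios kept, its means were 1.30 on the double, -0.15 on the alpha and -0.14 on the direct arrays. The gap was 0.77 for Fasn, -0.62 for Sqle and -0.40 for Fdft1.

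**Figure D3:**
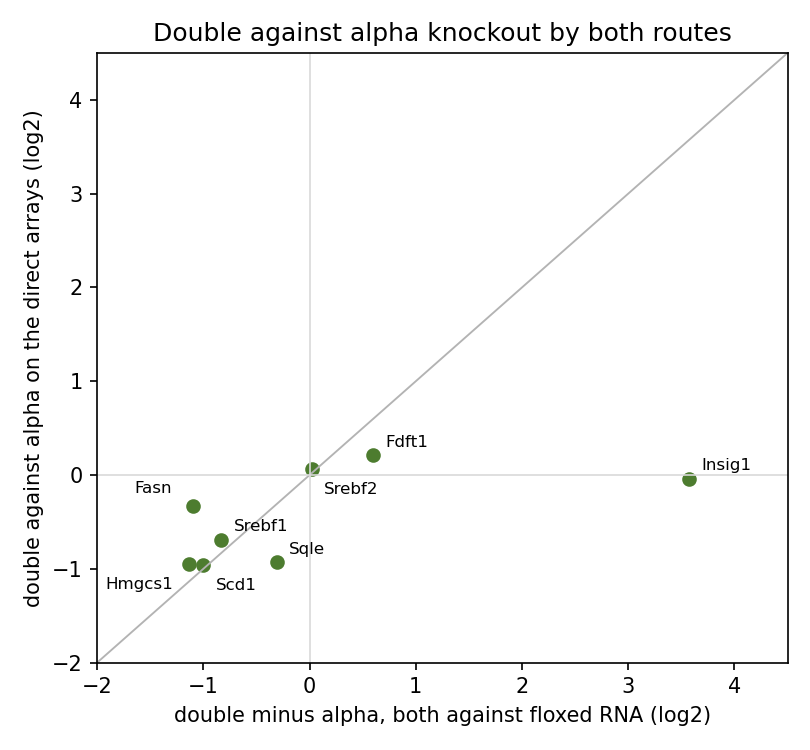
Double knockout against alpha knockout for the 8 genes, with the log2 ratio of the direct arrays on the vertical axis and the double minus alpha difference through the floxed controls on the horizontal axis; the diagonal marks equality. Insig1 lies far from the line (3.57 against -0.04), and Srebf2, Scd1 and Srebf1 lie close to it.

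The other genes of the pathways were taken from 5 lists of 70 genes, of which 59 had a probe and 43 could be tested with limma (adjusted p under 0.05 over 11328 genes). The 11 listed genes not among these 59 were not analysed here. On the alpha arrays 8 of the 43 rose and 1 fell, a share of 20.9% beside 16.1% of all genes tested (11% higher, 5.16% lower). Among the 2845 genes whose every ratio was used, the called share was higher, at 24.5%. The median of the 43 was 0.32. Over all genes 1242 rose and 584 fell, and this split depends on the centring: with arrays centred on the 2845 genes whose every ratio was used, which had a median of 0.20 on the alpha arrays, 831 rose and 957 fell (1522 and 300 with centring on the median probe), and of the pathway genes 6 rose and 2 fell. The list of fatty acid synthesis held 11 of the 43 tested genes, and 4 of the 8 that rose against the floxed controls. These were Thrsp, a regulator of lipogenesis (1.49 ± 0.10, adjusted p = 0.00201), the malic enzyme Me1 (1.24 ± 0.28, 0.00725), the acetyl-CoA carboxylase Acacb (1.06 ± 0.26, 0.008) and the elongase Elovl5 (0.96 ± 0.33, 0.0268), each with n = 3. Of the sterol enzymes, Pmvk (1.24 ± 0.57, 0.0395) and Fdps (1.30 ± 0.69, 0.0429), which make the isoprenoid precursors, rose. The sterol carrier Npc2 (1.37 ± 0.28, 0.00464) and Erlin1, an endoplasmic reticulum protein that binds SREBP complexes (1.05 ± 0.38, 0.0433), rose too. Nceh1, a cholesteryl ester hydrolase, was the gene that fell (-1.08 ± 0.24, 0.0192). Leaving out alpha 1, 2 or 3 brought the 9 calls to 2, 5 and 3, and keeping beta 3 brought them to 1.

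On the beta arrays limma called 0 of the 43 genes, where 0.00883% of all genes were called. An unadjusted limma p under 0.05 was found for 9 of the 43, beside 1919 of all 11328 genes tested. For the 43 the median was 0.35, as high as on the alpha arrays, with 2 arrays in place of 3.

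On the double arrays, where the Insig1 value was high, 2 of the 43 genes were called, 4.65% beside 2.24% of all genes (0.839% higher, 1.4% lower). Among the genes whose every ratio was used, 3.73% were called. Sc5d, the sterol C5-desaturase late in cholesterol synthesis, rose (1.08 ± 0.38, n = 3; adjusted p = 0.0447) and Nceh1 fell (-1.32 ± 0.61, n = 3; adjusted p = 0.0291). Sc5d stood at 0.67, 1.13 and 1.43 on the 3 arrays, and its call was lost without centring and with arrays centred on the median probe or on the genes whose every ratio was used. The median of the 43 was 0.03. Of the 12 sterol enzymes tested, 6 were above 0 and the median was 0.00. The genes beside Insig1 in the same feedback loop were not called: Insig2, its paralog, stood at -0.22 ± 0.49 (n = 3; adjusted p = 0.708) and Scap at 0.03 ± 0.02 (n = 2; adjusted p = 0.970). Leaving out double 1, 2 or 3 gave 0, 0 and 1 calls, and leaving out any 1 of the other arrays of the fit gave 0 or 1.

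On the direct arrays 8 of the 43 genes fell and 0 rose, a share of 18.6% beside 13.6% of all genes (5.4% higher, 8.16% lower). Among the genes whose every ratio was used, 19.1% were called. Over all genes 612 rose and 924 fell, and with centring on the median probe 268 rose and 1097 fell, with 0 and 7 of the pathway genes. The median of the 43 was -0.47. Thrsp (-1.01 ± 0.23, n = 3; limma adjusted p = 0.0101), Acacb (-0.81 ± 0.13, n = 3; 0.0248), Npc2 (-1.01 ± 0.41, n = 3; 0.0174) and Pmvk (-1.21 ± 0.26, n = 3; 0.0477) were among those that fell. The others were the HDL receptor Scarb1 (-1.08 ± 0.44, n = 3; 0.0148), the mevalonate decarboxylase Mvd (-1.43 ± 0.34, n = 2; 0.0359), Nr1h3, which encodes LXRalpha (-0.71 ± 0.06, n = 3; 0.0422), and the phospholipid enzyme Lpcat3 (-1.13 ± 0.66, n = 3; 0.0492). With the replicate number as a block, the adjusted p was 0.0619 for Mvd and 0.0593 for Lpcat3, so both calls were lost. The alpha RNA is the numerator on the alpha arrays and the denominator on the direct arrays, so the groups share it and their values are set side by side only. Leaving out direct 1, 2 or 3 gave 5, 0 and 1 calls in place of 8, and keeping beta 3 gave 1. With arrays centred on the genes whose every ratio was used, 6 fell and 1 rose.

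**Figure D4:**
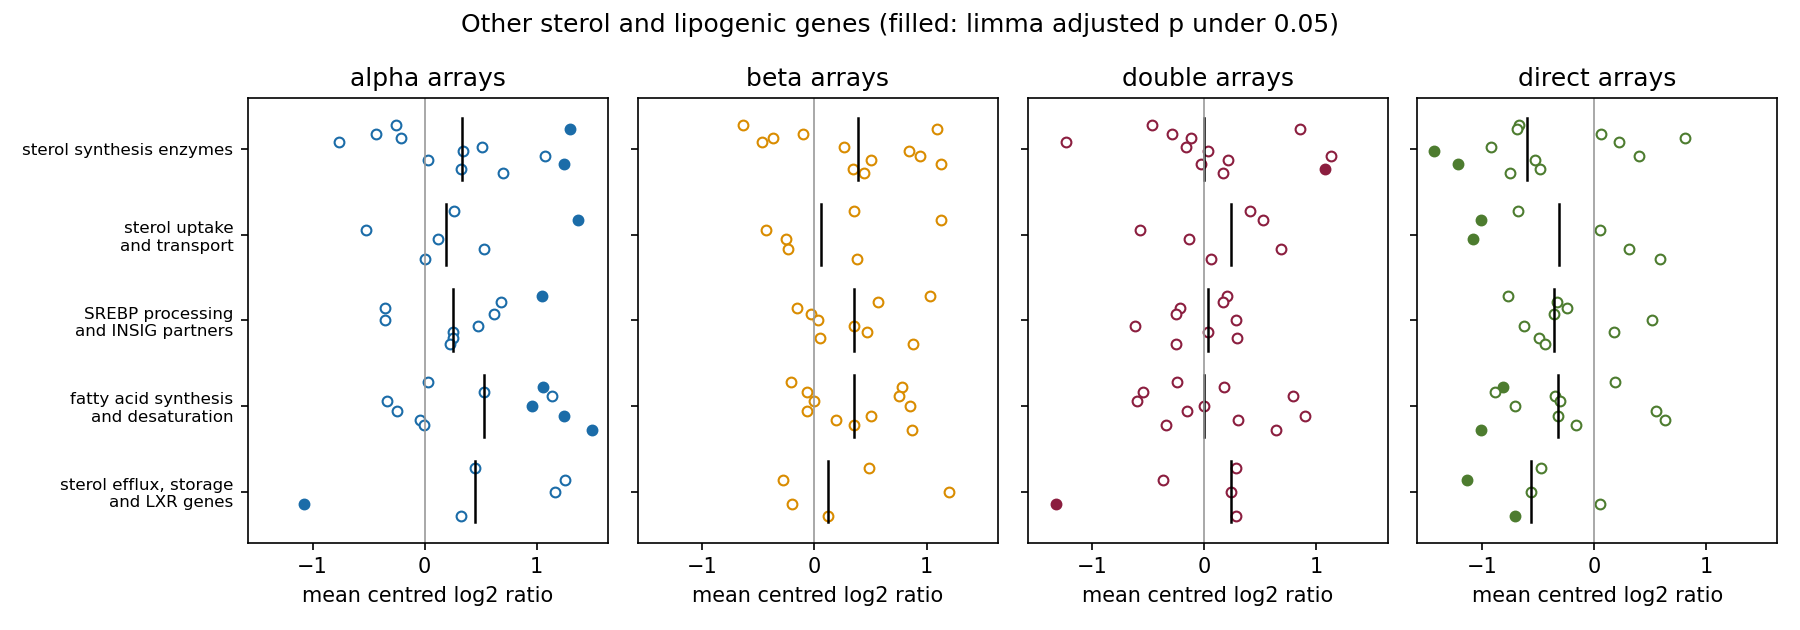
Centred log2 ratios of the 43 tested pathway genes by list and group, on the horizontal axis, with a point per gene, a vertical bar for each list's median and filled points for genes with limma adjusted p under 0.05. Calls number 9 on the alpha, 0 on the beta, 2 on the double and 8 on the direct arrays.

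Acly, which makes cytosolic acetyl-CoA, and Acaca, the acetyl-CoA carboxylase of lipogenic tissue, were not called in any group. Acly stood at 0.53 ± 0.60 (n = 3) on the alpha, -0.07 ± 0.45 (n = 2) on the beta, -0.55 ± 0.56 (n = 3) on the double and -0.88 ± 1.41 (n = 3) on the direct arrays. Acaca stood at 0.03 ± 1.05, -0.21 ± 0.20, -0.24 ± 1.15 and 0.19 ± 0.70 in the same order. Insig2 stood at -0.35 ± 0.13 on the alpha arrays (adjusted p = 0.398), and its means lay between -0.35 and -0.16 over the 4 groups, with no call.

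Adipocytes between the fibres also make lipogenic RNA, so their markers are given beside these counts. Of 8 adipocyte markers 4 could be tested, 0 were called in any group, and their medians were -0.03, -0.13, 0.06 and 0.40 on the alpha, beta, double and direct arrays. The double median covers genes of both signs. Adipoq stood at 0.89, 0.72 and 1.45 on the double arrays (limma adjusted p = 0.0535), just short of a call. The double means of Cidec, Retn and Fabp4 were 0.34, -0.22 and -0.28. Plin1, not tested, stood at 0.67 and 1.24 on double 2 and 3. Lipe, also not tested, stood at -1.43, -1.04 and -1.66 on the double arrays. Of 4 endothelial markers tested 3, Cdh5, Cldn5 and Esam, fell on the direct arrays (median -0.93), where Tek stood at 0.12. Of 4 Schwann cell markers S100b fell on the alpha arrays (-1.59). Of all genes tested, 8.16% fell on the direct and 5.16% on the alpha arrays. The 5 tested muscle fibre markers had medians of 0.95, 0.73, 0.87 and 1.37. Of these 3 rose on the alpha arrays (Acta1 1.07, Actn3 1.90, Myh7 0.95), 1 on the double arrays (Myh7 1.78) and 3 on the direct arrays (Acta1 1.92, Tnnt3 1.43, Myh7 1.37). Ckm (-0.43) and Actn3 (-0.03) did not rise on the direct arrays. Of all genes tested, 11%, 0.839% and 5.4% rose on the alpha, double and direct arrays. The part of these cell types in the lipid gene values was not tested.

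The genes whose ratios were most like those of Insig1 over the 8 arrays with a value were Cbfa2t2 (Pearson r = 0.972), Braf (0.963), Peg3 (0.953), Sfmbt2 (0.942) and Ephx3 (0.941), out of 9232 genes ranked. Of these arrays 6 were read against floxed RNA and 2 against alpha knockout RNA. Without double 2 and double 3 the same genes had r of 0.636, 0.288, 0.332, 0.422 and 0.35 over 6 arrays, so the likeness rested on those 2 arrays. Of the other 7 genes of the set, Srebf2 had the highest r with Insig1 over the 8 arrays (0.59, and 0.77 without those 2 arrays). Without those 2 arrays the order changed. Fasn (0.93, from -0.46) and Sqle (0.92, from 0.29) were then highest, and Fdft1 (-0.34, from 0.38) was lowest. Of 35 pathway genes with a value on all 8 arrays, the extremes, picked after their values were seen, were Sc5d (0.85), the sterol carrier Stard4 (0.70) and the ubiquitin ligase Rnf145 (-0.83). Without double 2 and double 3 these were 0.53, 0.05 and 0.39.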

How the data were processed

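Total RNA of gastrocnemius was measured on 12 arrays, grouped by title. The deposited value table holds 1 Cy5 over Cy3 ratio per probe and array, on a linear scale and multiplied by 1 factor per array; the scanner and the background correction are not stated there or in the labels. The authors' deposited means of ratios, limited per the labels by fold, were used only where named. There were 40928 probes: 1 symbol stood for 32443 of them, several for 44 and none for 8441.

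Log2 was taken of the defined ratios, probes were averaged per gene, and arrays were centred on the median gene. Ratios within rounding of a fraction of whole numbers up to 10 times the factor, and the third beta array, were left out. A gene needed a value on 2 arrays of every group. limma 3.58.1 in R 4.3.3 (lmFit, eBayes, two-sided, Benjamini-Hochberg at 0.05 over 11328 genes) tested each group's mean against 0 over 11 arrays, with 1 shared spread. The test leaves out the spread between control samples. On simulated data with 100 genes shifted by 1 on the log2 scale, 40%, 18%, 44% and 45% were recovered on the alpha, beta, double and direct arrays. With a further 100 shifted by 2, unshifted genes made up 0 of 140, 0 of 118, 25 of 169 and 17 of 161 calls. On the double and direct arrays this was above the level of 0.05. The simulated noise was independent between arrays, with 1 SD per array for all genes, unlike the real arrays. These shares therefore do not give the false calls among the real ones. Arrays have no depth, and their number limits the precision.

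The 8 genes, the 5 pathway lists and the marker lists were chosen with earlier results of these data known. Every called pathway gene is named, up to 12 per group by adjusted p, with Insig2, Scap, Acly and Acaca always where measured; genes most like Insig1 are the top 5 by Pearson correlation. Other settings changed the centring, the filters, the probe summary, the arrays, weights, a dye term or a replicate block. The labels do not say what the replicate number stands for. Deviations from the group means correlated at 0.10 to 0.43 in the 7 same-number pairs of arrays against floxed RNA, so the numbers may pair these. They correlated at -0.25 to 0.27 in the 8 pairs with a direct array, where the alpha RNA is the denominator. Such deviations cancel within a group, so pairs of different numbers are no free comparison and the pairing is not settled. The main p-values, from the fit without a block, would ignore it.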

Additional observations from a re-analysis of the deposited data

How the results depend on the processing

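The counts of called pathway genes were 9 on the alpha, 0 on the beta, 2 on the double and 8 on the direct arrays. On the alpha arrays they became 1 with the third beta array kept, 5 with the small fractions kept, 0 with both kept, 0 without centring, 5 with the group fitted alone, 3 with a dye term and 16 with array weights. On the beta arrays array weights gave 2. On the double arrays they became 0 with the third beta array kept, with the fractions kept, with both kept, without centring, with the group alone and with a dye term; 1 with probe-level centring, with a value needed on 1 or on every array, and with centring on genes whose every ratio was used; and 4 with weights. On the direct arrays they became 1 with the third beta array kept, 0 with both kept, 5 with a value needed on 1 array, and 0 with the group alone and with a dye term. Leaving out 1 array in turn gave 2 to 10, 0 to 0, 0 to 1 and 0 to 8 calls. The causes were not tested. For Insig1, keeping the fractions, or both, moved the alpha mean from 0.30 to -0.15 and the double mean from 3.86 to 1.30; keeping the fractions moved the beta mean from 0.21 to -0.32, and probe-level centring to 0.45. Without 1 array the Insig1 means ranged from 0.11 to 0.48 (alpha), 0.08 to 0.35 (beta), 2.84 to 4.89 (double) and -0.47 to 0.39 (direct). Leaving out denominators up to 5 as well, chosen after seeing the data like the centring on fully used genes, left no Insig1 value on the double arrays. With the third beta array kept, the beta means of Srebf1, Srebf2 and Fasn were -0.24, -0.61 and -0.72. Of the 343 recomputed means of the 8 genes, 307 moved by less than the spread between arrays and 36 by more. Leaving out 1 array cannot move a group mean by more than that spread. Keeping the third beta array leaves the means of the other groups unchanged. Those recomputations are among the 307 whatever the data, so the count does not measure stability. Called pathway genes kept their call in 267 recomputations, lost it in 183 and turned direction in none of the settings run.

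With the replicate number as a block the counts were 10, 0, 2 and 7; of the named calls those of Mvd and Lpcat3 on the direct arrays were lost and no other was. Among all groups, 9 of 11 arrays correlated best with an array of their own number. The deviations used cancel within a group, so this count does not settle whether the numbers pair arrays.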
